A study of Mus musculus with 6 samples.

Results

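The MYC network genes are the genes of MYC proteins, of their partner MAX and of the proteins that compete with MYC for MAX. Here they were Myc, Mycn, Mycl, Max, Mxd1, Mxd4, Mxi1, Mnt and Mga, 9 of the 21887 protein-coding genes of the RefSeq annotation of GRCm38.p6 on the main chromosomes. The members were taken by name, and their H3K27ac peaks by place. For each gene every peak was used that overlapped its territory, which is the gene span with 50 kb on each side, stopped at the next protein-coding gene. For Myc the 2 Mb on its high-coordinate side were added, where a blood enhancer cluster lies.

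MYC binds DNA as a pair with MAX, at the E-box CACGTG, and raises transcription of genes for ribosome assembly, nucleotide synthesis and cell growth. MXD1, MXD4, MXI1 and MNT also pair with MAX, bind the same sites and repress, and MGA is a large MAX partner found in a repressive Polycomb complex. In blood stem cells the level of MYC bears on the balance between self-renewal and differentiation. Protein phosphatase 2A (PP2A) with a B56 subunit takes a stabilising phosphate off MYC. H3K27ac, acetylation of histone H3 at lysine 27, marks promoters and enhancers in use.

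The mark was mapped by CUT&RUN, in which an antibody guides a nuclease to cut out the marked chromatin. There were 3 libraries of hematopoietic stem cells from bone marrow of mice deficient in Ppp2ca (KO), the gene of the PP2A catalytic subunit alpha, and 3 libraries of the same cells from wild-type mice (WT). The series text gives 3 mice of each genotype, and a library was treated as 1 mouse, though the labels number no animals. The Ppp2ca allele, any Cre driver, the age of the mice and the sort of the cells are not given in the sources used.

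The deposited lists held 50453, 34016 and 35629 peaks in KO libraries 1 to 3, against 22066, 29945 and 21917 in WT libraries 1 to 3. They covered 22.7, 14.5 and 19.6 Mb in the KO libraries, against 7.28, 9.60 and 7.25 Mb in the WT libraries. Read totals are not in the lists. The commonest background that the peaks imply, a stand-in for depth, was 0.738, 0.465 and 0.827 fragments per 200 bp in the KO libraries and 0.499, 0.584 and 0.498 in the WT libraries. In background KO libraries 1 and 3 lay above every WT library and KO library 2 below every WT library. In peaks and in base pairs called, all 3 KO libraries lay above every WT library. The part of depth in this was not tested. Ppp2ca itself had a peak at its gene start in all 6 libraries, which checks no label, since the deleted part is not given. Of 9 stem and progenitor markers, 7 had no gene-start peak in any library (Ly6a, Procr, Mecom, Hlf, Cd34, Tek and Gata2), although 9, 8 and 8 of the 9 territories held some peak in KO libraries 1 to 3 and 8, 9 and 7 in WT libraries 1 to 3. Erythroid markers had gene-start peaks at 4, 3 and 4 of 6 genes in the KO libraries and 2, 2 and 2 in the WT libraries, and myeloid markers at 4, 2 and 4 of 6 against 3, 3 and 2. B cell, T cell and stromal markers had such peaks at 0 or 1 gene of 5 each in every library. Of all protein-coding genes, 50.4% had no gene-start peak in any library. On average 42.5% had one in KO libraries and 28.1% in WT libraries, so the marker counts are to be read beside these shares. Of all territories, 16.2% held no peak in any library. The part of these marker differences in the results was not tested.

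The promoters below are those with the strongest or the most instructive marks, from RefSeq's GRCm38.p6 sequence, 5′ to 3′ along transcription. Capitals mark CACGTG, the site that MYC-MAX and the MXD and MNT pairs share. Max is shown in 2 pieces that do not adjoin, 1 just upstream of the gene span and 1 around the annotated start. This start lies inside the gene span, and the E-box crosses it. Mycn is shown as the promoter with no peak in any library.
Mxd4 (chr5:34187711-34187960, minus strand): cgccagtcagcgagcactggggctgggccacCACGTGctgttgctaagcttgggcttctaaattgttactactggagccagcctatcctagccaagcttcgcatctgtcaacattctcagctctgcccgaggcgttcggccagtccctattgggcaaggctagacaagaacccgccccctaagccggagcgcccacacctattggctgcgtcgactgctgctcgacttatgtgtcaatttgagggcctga
Mnt (chr11:74830674-74830810, plus strand): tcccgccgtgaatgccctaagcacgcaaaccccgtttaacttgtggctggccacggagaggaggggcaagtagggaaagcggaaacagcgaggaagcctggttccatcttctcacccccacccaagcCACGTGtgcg
Max, upstream (chr12:76962324-76962498, minus strand): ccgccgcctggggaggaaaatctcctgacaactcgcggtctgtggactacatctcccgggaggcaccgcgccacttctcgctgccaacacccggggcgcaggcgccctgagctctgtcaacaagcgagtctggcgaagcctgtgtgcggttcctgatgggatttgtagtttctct
Max, E-box at the start (chr12:76962234-76962263, minus strand): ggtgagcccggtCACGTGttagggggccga
Mga (chr2:119896978-119897227, plus strand): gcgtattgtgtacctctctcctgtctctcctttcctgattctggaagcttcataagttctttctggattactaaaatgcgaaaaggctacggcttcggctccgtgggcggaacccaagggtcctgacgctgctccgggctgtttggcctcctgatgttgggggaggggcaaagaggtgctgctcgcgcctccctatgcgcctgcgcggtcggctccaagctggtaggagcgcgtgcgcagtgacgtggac
Mycn (chr12:12941837-12942086, minus strand): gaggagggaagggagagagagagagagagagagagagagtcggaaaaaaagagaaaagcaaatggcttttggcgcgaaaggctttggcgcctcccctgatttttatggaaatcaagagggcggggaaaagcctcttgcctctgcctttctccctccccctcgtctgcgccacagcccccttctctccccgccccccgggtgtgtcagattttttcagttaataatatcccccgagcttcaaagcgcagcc

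CACGTG was searched on both strands in the windows of 250 bases before to 50 after each annotated start. The members have 10 such windows, 3 of them for Mxi1. Myc had no annotated start in the sources used, so its promoter was not searched. CACGTG was found in 3 of the 10, in Max with its first base 3 bases before the start, in Mnt 123 bases before and in Mxd4 219 bases before, against 7.15% of all 32851 promoter windows. The looser E-box CANNTG, which includes CACGTG, was found in 8 of 10 windows and in 72.3% of all. The RUNX word TGTGGT and the GATA word AGATAA were found in 0 of the 10, against 16.8% and 11.2% of all windows. A match is only a run of letters, and binding was not measured. Peaks of all 3 KO libraries covered the Max E-box, and a peak of 1 WT library reached into the 30 printed bases without covering the CACGTG itself. The printed Mxd4 and Mnt stretches were each overlapped by peaks of 3 KO and 2 WT libraries, the Mga stretch by 3 KO and 1 WT, and the Mycn stretch by none. The CACGTG of Mnt itself lay under peaks of KO libraries 1 and 3 and of WT libraries 1 and 3. That of Mxd4 lay under peaks of all 3 KO libraries and of WT libraries 2 and 3.

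The MYC network territories carried more H3K27ac peaks, and wider ones, in every KO library than in any WT library. They held 114, 72 and 74 peaks in KO libraries 1 to 3 and 34, 44 and 32 in WT libraries 1 to 3, a mean of 86.7 ± 23.7 against 36.7 ± 6.43 (SD, n = 3 each). Base pairs covered were 44663, 27987 and 36456 in the KO libraries and 10956, 15049 and 11307 in the WT libraries, a ratio of means of 2.92. In both measures the groups did not overlap, and a two-sided exact permutation test, with its 20 ways to assign the libraries, gave p = 0.1, the smallest it can give, so no call at 0.05 was possible here or in any comparison below. The excess was part of a genome-wide one. Per Mb called in the library, the territories still took 1966, 1924 and 1863 bp in the KO libraries and 1505, 1568 and 1561 in the WT libraries (ratio 1.24, exact permutation p = 0.1), again without overlap. Of this mean difference of 373 bp per Mb, 275 lay in the 2 Mb past Myc, so it is not a trait of the network as a whole. By this share Mnt and Mxd4 had lower means in KO. In bulk chromatin, more cells with the mark and more of the mark per cell cannot be told apart.

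Single peaks in these territories were small. The 260 KO peaks had a median summit of 8 fragments and a median width of 317 bp, against 5 fragments and 258.5 bp for the 110 WT peaks. Median fold over background, the authors' value at the summit, was 3.20 in KO peaks and 3.19 in WT peaks. A q-value of at most 0.05 was reached by 124 KO peaks (47.7%) and by 22 WT peaks (20%). The whole lists differed in the same direction. There 22107, 16097 and 23714 of 50453, 34016 and 35629 peaks reached it in KO libraries 1 to 3. In WT libraries 1 to 3 it was 3635, 4678 and 3649 of 22066, 29945 and 21917. Median widths over the lists were 306, 311 and 391 bp in KO and 234, 221 and 236 bp in WT. Median summits, at a −log10 p-value below 15, were 6, 6 and 9 fragments in KO and 5, 5 and 5 in WT. Fold and q-value belong to each library's own list and depend on its depth, so they describe peaks and were not tested between genotypes.

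Base pairs covered were higher in every KO library than in every WT library for 7 of the 9 members, Myc, Max, Mxd1, Mxd4, Mxi1, Mnt and Mga. For Mxd4 this order rested on a border region in the neighbours Poln and Haus3. At the Mxd4 start alone the groups overlapped, with 689, 766 and 953 bp in KO and 548, 799 and 286 bp in WT. The groups overlapped for Mxd1 at equal numbers of peaks per library (1814 bp in KO, 630 bp in WT, exact permutation p = 0.2), for Mxd4 where at least 0.5 of a peak had to lie inside (803 bp in KO, 544 bp in WT, p = 0.3) and for Myc with 10 kb flanks and no 2 Mb (992 bp in KO, 443 bp in WT, p = 0.3). The same order held at 41 percent of all 21887 protein-coding gene territories, and at 48.9 percent of the 18352 that held any peak. None of the 9 had the reverse order, which 0.635 percent of all territories showed. By number of peaks the order held for 4 members, Myc, Max, Mxd1 and Mxi1, against 15.6 percent of all territories. As a share of the library's called base pairs it held for 3 members, Myc, Max and Mxi1, against 10.1 percent, while Mnt had the reverse order, as 4.87 percent of territories did. The plot of base pairs by library shows all 9.

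**Figure D1:**
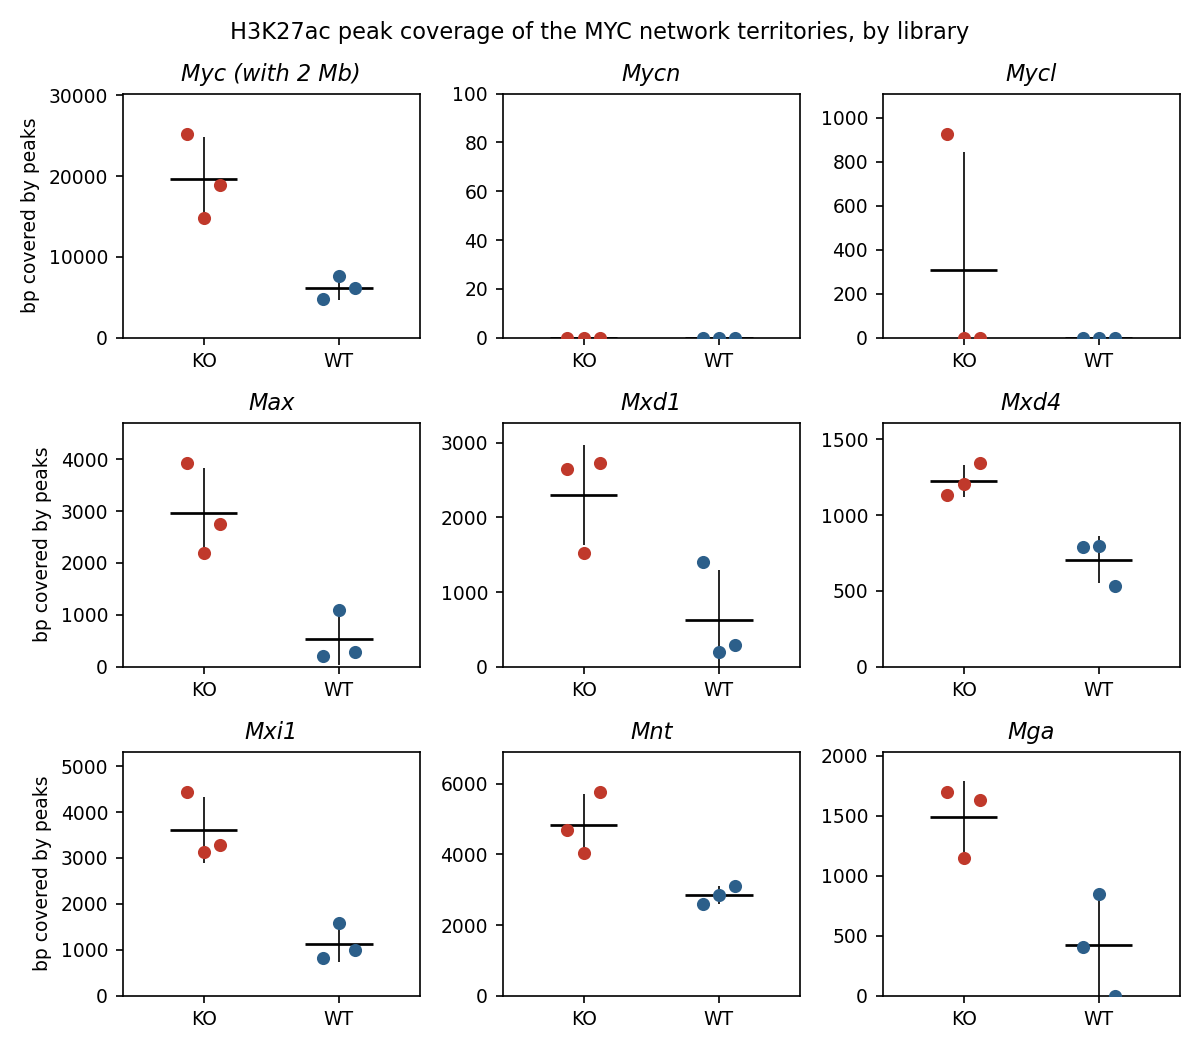
Base pairs covered by H3K27ac peaks in the territory of each MYC network gene, 1 point per library, with KO (Ppp2ca-deficient) left of WT in each panel; the horizontal bar is the mean of 3 libraries and the vertical line 1 SD, and each panel has its own scale. The KO points lie above all WT points in 7 panels, every point of Mycn is at 0, and Mycl has 1 KO library above 0.

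Coverage per kb depends on the length of the territory, which is short where a neighbouring gene is near. The lengths were 22.4 kb for Mnt, 25.4 for Mxd4, 45.5 for Mxd1, 90.9 for Max, 119 for Mxi1, 150 for Mga and 2055 for Myc. The order below nearly follows them, so it does not by itself rank how marked the genes are. Per kb of territory, in the order of the KO means, Mnt was the most covered member, with 216 ± 39.0 bp per kb in KO and 127 ± 11.2 in WT libraries (SD, n = 3 each). Next came Mxd1 (50.6 ± 14.8 bp per kb in KO, 13.9 ± 14.7 in WT) and Mxd4 (48.3 ± 4.22 in KO, 27.9 ± 6.01 in WT). Within libraries their order varied in KO, but Mxd4 lay above Mxd1 in every WT library. Max (32.5 ± 9.72 bp per kb in KO, 5.79 ± 5.45 in WT) and Mxi1 (30.3 ± 6.01 in KO, 9.49 ± 3.32 in WT) came after them. Their order also varied in KO, but Mxi1 lay above Max in every WT library. Mga (9.95 ± 1.99 bp per kb in KO, 2.80 ± 2.83 in WT) and Myc with its 2 Mb (9.56 ± 2.55 in KO, 3.01 ± 0.716 in WT) followed, in an order that varied between libraries of both genotypes. In the WT libraries the place of Mxd1 rested on library 1 (30.8, 4.40 and 6.42 bp per kb in WT libraries 1 to 3), and Mxi1 was above it in WT libraries 2 and 3 (13.2 and 8.38 bp per kb).

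A gene start counted as marked where a peak reached within 1000 bp of an annotated start; Myc had no start in the table, so both ends of the gene were used. Gene starts were marked at 7, 7 and 7 of the 9 members in KO libraries 1 to 3 and at 4, 6 and 4 in WT libraries 1 to 3 (two-sided exact permutation p = 0.1). Of all protein-coding genes 42.5% were marked on average in KO libraries and 28.1% in WT libraries. Mxd4 and Mnt were marked in all 6 libraries, as were 17.8 percent of all genes. None of the 9 was marked in the 3 KO libraries alone, a pattern of 4.22 percent of all genes, and none in the 3 WT libraries alone, a pattern of 0.00914 percent. Mycn and Mycl were marked in no library, as were 50.4 percent of all genes. With peaks of q-value at most 0.05 alone, the marked members numbered 6, 6 and 7 in the KO libraries and 1, 4 and 1 in the WT libraries. The share of all genes at this threshold is not given here. The whole lists held 16097 to 23714 such peaks in the KO libraries and 3635 to 4678 in the WT libraries, so these counts do not single out the members.

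Among the genes of the MYC proteins, Myc (chr15:61985341-61990361) was marked at the gene in all 3 KO libraries and in WT libraries 2 and 3. Its best peak had a fold of 2.91, 3.74 and 3.86 in KO libraries 1 to 3, against 4.71 and 3.68 in WT libraries 2 and 3. Within its own list the peak of WT library 2 ranked highest, at percentile 4.06 (0 is the strongest), against percentiles of 41.7, 29.1 and 21.4 in KO libraries 1 to 3, although these lists differ in length and the KO library 3 peak had the most summit fragments, 18 against 12 in WT library 2. Over the gene and its low-coordinate 50 kb, peaks covered 785, 200 and 1548 bp in the KO libraries and 0, 836 and 493 bp in the WT libraries. The groups overlapped there (exact permutation p = 0.5), so the Myc gene itself, unlike the 2 Mb past it, did not separate the genotypes. Mycn (chr12:12936093-12941836), the gene of N-MYC, had no peak in any library anywhere in its 106 kb territory, as 16.2 percent of all territories had none. Mycl (chr4:122995588-123002490), the gene of L-MYC, had 926 bp covered in KO library 1 and 0 bp in the other 5 libraries. Of that KO library 1 coverage, 3 peaks of 200 to 379 bp lay in the low-coordinate flank, and all missed a q-value of 0.05. A region at the far border of the Mycl territory (chr4:123016397-123017510) had a peak in all 3 KO libraries and no WT library, but it lies mostly in the neighbouring gene Trit1.

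Max (chr12:76937269-76962323), the shared partner, was more covered in every KO library. Its territory had 3923, 2192 and 2749 bp covered in KO libraries 1 to 3, against 205, 1097 and 277 bp in WT libraries 1 to 3, a ratio of means of 5.61 (exact permutation p = 0.1). The ratio was 12.3 without WT library 2 and 4.30 without WT library 1. Max also took a larger share of the called base pairs in every KO library, 155 ± 16.4 bp per Mb in KO against 60.2 ± 47.1 in WT (SD, n = 3 each, exact permutation p = 0.1). Over its start and the E-box printed above, peaks were 854, 465 and 922 bp wide in the KO libraries, with folds of 3.81, 3.32 and 4.24. No WT peak covered the start or the E-box; the nearest, in WT library 2, was 633 bp wide with a fold of 3.12 and a q-value above 0.05 and ended just inside the gene. A second region 3692 bp into the gene (chr12:76956915-76958556) had peaks in all 3 KO libraries and in WT library 3, whose peak there, with a fold of 4.80, was the best ranked of the 4 libraries.

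Of the repressor genes, Mxd4 and Mnt were marked at the start in all 6 libraries. Mxd4 (chr5:34176580-34187710), the gene of an MXD repressor, had a start peak in all 6 libraries, with folds of 7.04, 5.19 and 6.34 in KO libraries 1 to 3 and 2.91, 4.40 and 3.23 in WT libraries 1 to 3. Every KO fold was higher than every WT fold, and the KO peaks were wider, at 689, 766 and 953 bp, while the WT peaks reached 348, 599 and 286 bp. WT libraries 1 and 2 each had a further peak of 200 bp near the start. Within 1000 bp of the start, peaks covered 689, 766 and 953 bp in the KO libraries. The WT libraries had 548, 799 and 286 bp there, so in start coverage the groups overlapped. Covered base pairs of the whole territory were 1133, 1203 and 1343 in the KO libraries and 791, 799 and 531 in the WT libraries. These totals include the inner part of the border region of Poln and Haus3 named below, and all the rest lay at the start. As a share of each library's called base pairs the direction turned, with 67.1 ± 16.5 bp per Mb in KO and 88.4 ± 18.2 in WT libraries (exact permutation p = 0.2). The best other region of the Mxd4 territory, also present in all 6 libraries, lay at the border in the neighbours Poln and Haus3 (chr5:34168933-34169970).

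Mnt (chr11:74830806-74845725), the MAX partner expressed most widely in this family, carried strong marks in both genotypes. At its start KO libraries 1 and 2 had 3 and 4 separate peaks where KO library 3 had a single one of 3220 bp, and the WT libraries had 1, 3 and 3. The best of these lay at percentiles 3.60, 0.989 and 2.59 in KO libraries 1 to 3 and 8.91, 4.47 and 6.66 in WT libraries 1 to 3. A region inside the gene, 6533 bp past the start (chr11:74837457-74839649), was as strong and was present in all 6 libraries. There the widest peaks were 2174, 1852 and 2009 bp in the KO libraries and 1095, 1310 and 693 bp in the WT libraries, but the percentiles were 2.40, 5.83 and 3.37 in KO against 2.43, 1.49 and 3.17 in WT, which overlap. In all, 4701, 4026 and 5761 bp were covered in the KO libraries, against 2592, 2844 and 3092 bp in the WT libraries (ratio 1.70, exact permutation p = 0.1). As a share of called base pairs Mnt was lower in every KO library, at 259 ± 46.3 bp per Mb in KO and 360 ± 65.3 in WT libraries (exact permutation p = 0.1).

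Mxd1 (chr6:86647044-86669234), the gene of an MXD repressor that comes up as blood cells mature, had 2649, 1525 and 2727 bp covered in KO libraries 1 to 3, against 1398, 200 and 292 bp in WT libraries 1 to 3 (ratio 3.65, exact permutation p = 0.1). Without WT library 1 the ratio was 9.35. Start peaks of 439 and 796 bp lay over the annotated start in KO libraries 1 and 3, a separate one of 208 bp lay 709 bp inside the gene in KO library 2, and WT library 1 alone of the WT libraries had one, of 200 bp. No WT peak of the Mxd1 territory had a q-value of at most 0.05, while KO libraries had a mean of 3.33 ± 0.577 such peaks. The region of the territory with the best ranks (chr6:86639412-86640212), in the low-coordinate flank outside any annotated gene, had peaks in all 3 KO and 2 WT libraries.

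Mxi1 (chr19:53310128-53373293), the gene of the repressor also called MXD2, had 4432, 3123 and 3274 bp covered in KO libraries 1 to 3 and 817, 1575 and 998 bp in WT libraries 1 to 3 (ratio 3.19, exact permutation p = 0.1). Peaks of q-value at most 0.05 averaged 6 ± 1 in KO and 0.333 ± 0.577 in WT libraries. The gene has 3 annotated starts, and peaks near the first lay 229 bp or more inside it in the 3 KO libraries and in WT library 2, while WT library 3 had only a 200 bp peak past the later starts. A region in the stretch between the first and the later starts (chr19:53318337-53319364), which also lies in the lncRNA Gm30541, was the one Mxi1 region present in all 6 libraries.

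Mga (chr2:119872503-119970129), the gene of the largest MAX partner, had 1695, 1149 and 1631 bp covered in KO libraries 1 to 3 and 408, 849 and 0 bp in WT libraries 1 to 3 (ratio 3.56, exact permutation p = 0.1). Without WT library 2 the ratio was 7.31. In the KO libraries most of it lay at the annotated start (chr2:119897228), where peaks were 937, 949 and 955 bp wide in the KO libraries with folds of 7.64, 5.00 and 6.03, the highest fold of any network peak being that of KO library 1. WT libraries 1 and 2 had start peaks of 208 and 415 bp with folds of 3.49 and 4.64, and WT library 3 had none. Elsewhere in the Mga territory, 7 of its 9 regions were each seen in 1 library alone.

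**Figure D2:**
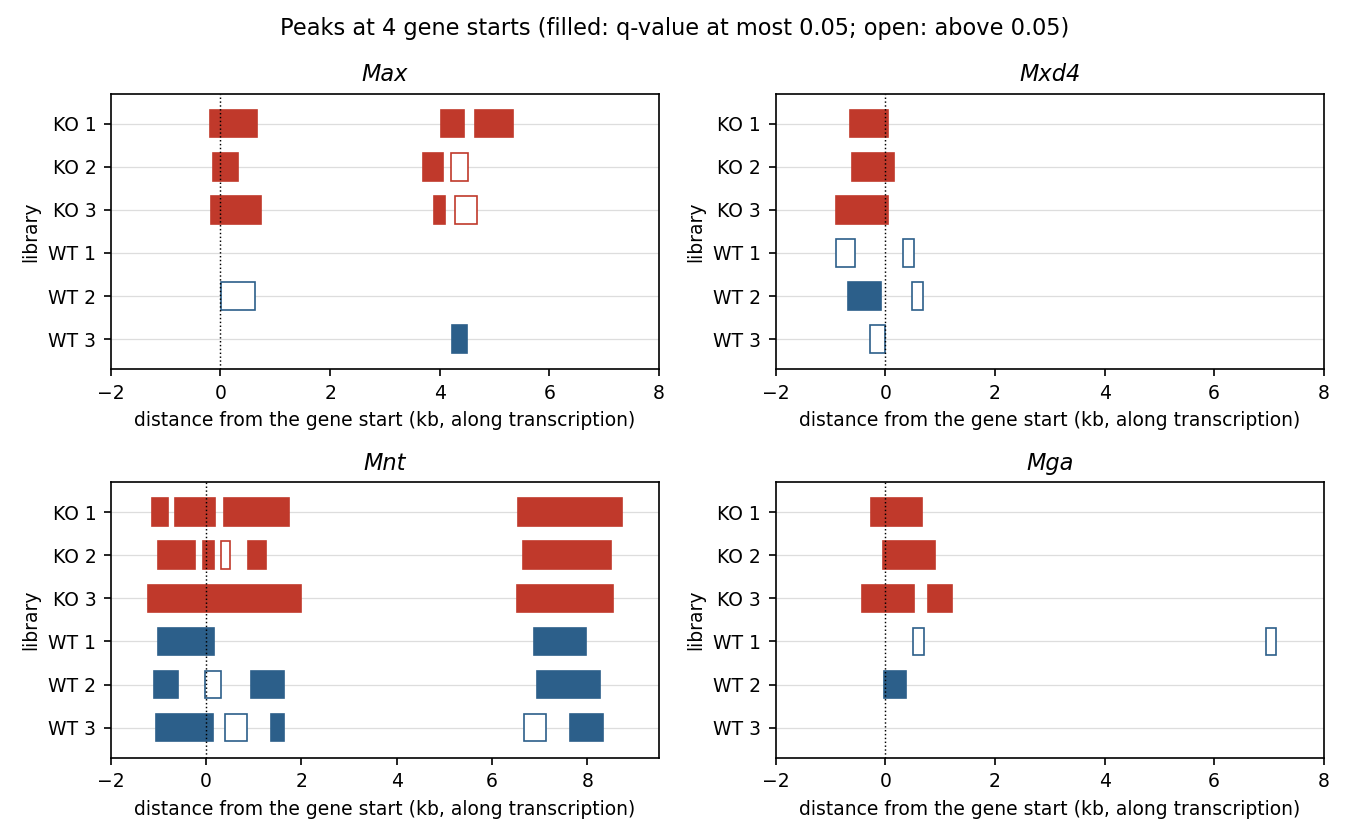
Peaks of each library from 2 kb before the annotated start of Max, Mxd4, Mnt and Mga, with distance along transcription in kb on the x axis and KO libraries above WT libraries; bars span each peak, filled where its q-value is at most 0.05. KO bars within 2 kb of the starts are filled with the exception of 1 of the Mnt bars of KO library 2, and open bars or gaps are common in the WT libraries at Max, Mxd4 and Mga, but Mnt has filled bars in all 6 libraries.

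The 2 Mb on the high-coordinate side of Myc (chr15:61990362-63990361) held most of the network's peaks. They numbered 70, 39 and 45 in KO libraries 1 to 3 and 18, 22 and 18 in WT libraries 1 to 3, a mean of 51.3 ± 16.4 against 19.3 ± 2.31 (SD, n = 3 each, exact permutation p = 0.1). Base pairs covered were 24419, 14569 and 17423 in the KO libraries and 4745, 6849 and 5624 in the WT libraries, a ratio of 3.28, and per Mb called 989 ± 92.8 bp in KO against 714 ± 62.1 bp in WT (both exact permutation p = 0.1). The groups did not overlap in any of these measures. Other protein-coding genes in this stretch are Gsdmc, Gsdmc2, Gsdmc3, Gsdmc4 and Cyrib, all near its far end, and which gene a peak acts on was not measured.

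**Figure D3:**
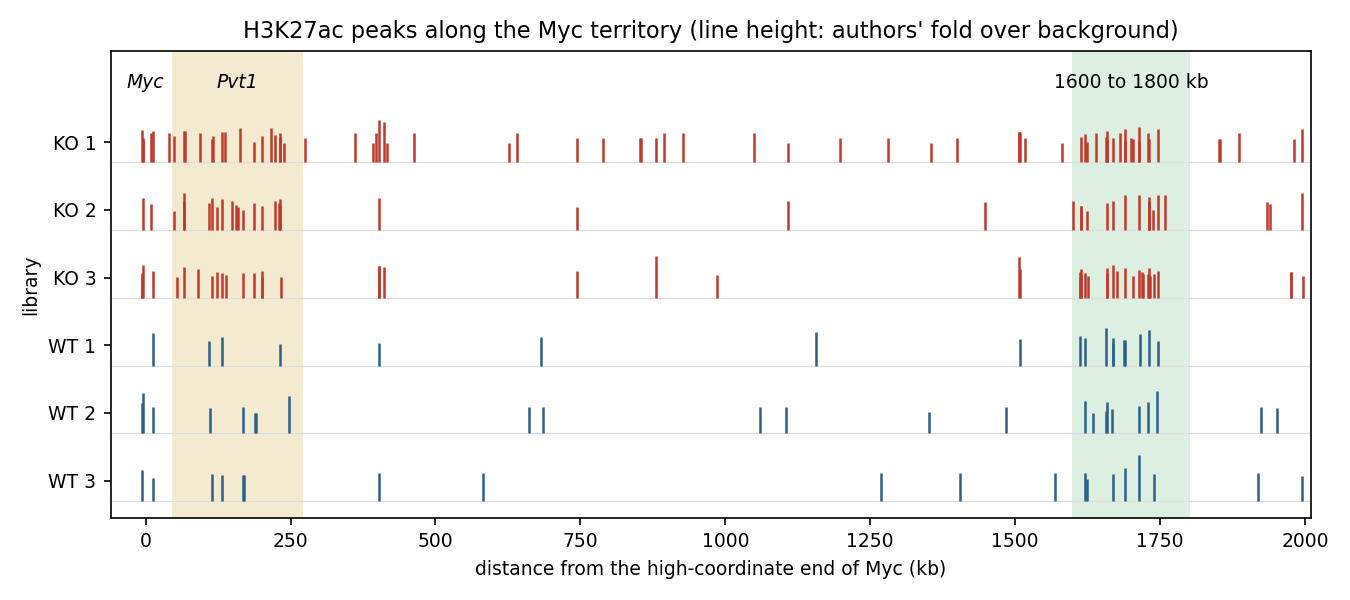
Peaks of each library along the Myc territory, with distance from the high-coordinate end of Myc in kb on the x axis and KO libraries above WT libraries; each line is 1 peak and its height the authors' fold. Shading marks the Pvt1 span and the stretch from 1600 to 1800 kb. Peaks gather in the latter in all 6 libraries, and both hold more peaks in every KO library than in any WT library.

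Along this stretch 2 spans are described, and the second of them held more covered base pairs than the first in every library. The first was the span of Pvt1 (chr15:62037986-62260215), a long noncoding RNA gene next to Myc, which makes up 222 kb of the 2 Mb. The Pvt1 span had 6137, 5360 and 4415 bp covered in KO libraries 1 to 3, against 632, 1041 and 983 bp in WT libraries 1 to 3, a ratio of 5.99. The second, from 1600 to 1800 kb past Myc (chr15:63590362-63790361), is where the blood enhancer cluster lies, and its limits were chosen after the values were seen. It had 8622, 6730 and 8118 bp covered in the KO libraries, against 3077, 3684 and 2704 bp in the WT libraries, a ratio of 2.48. Both spans were higher in every KO library (exact permutation p = 0.1 each). The Pvt1 peaks were weak, with 8, 4 and 1 of q-value at most 0.05 in KO libraries 1 to 3 and 0, 1 and 0 in WT libraries 1 to 3, which overlap (exact permutation p = 0.2). As shares of one total, which move against each other, the Pvt1 span took 29.1 ± 6.67% of the covered base pairs of the 2 Mb in KO libraries and 15.3 ± 2.08% in WT libraries, while the 1600 to 1800 kb span took 42.7 ± 6.40% in KO and 55.6 ± 8.52% in WT libraries. Per Mb called, Pvt1 stayed higher in every KO library, at 288 ± 73.1 bp in KO and 110 ± 24.5 bp in WT, whereas the 1600 to 1800 kb span overlapped, at 419 ± 41.7 bp in KO and 393 ± 26.1 bp in WT (exact permutation p = 0.6). Between 300 and 1600 kb, coverage was 7092, 1292 and 3577 bp in the KO libraries and 800, 1524 and 1337 bp in the WT libraries, which overlap (exact permutation p = 0.3).

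**Figure D4:**
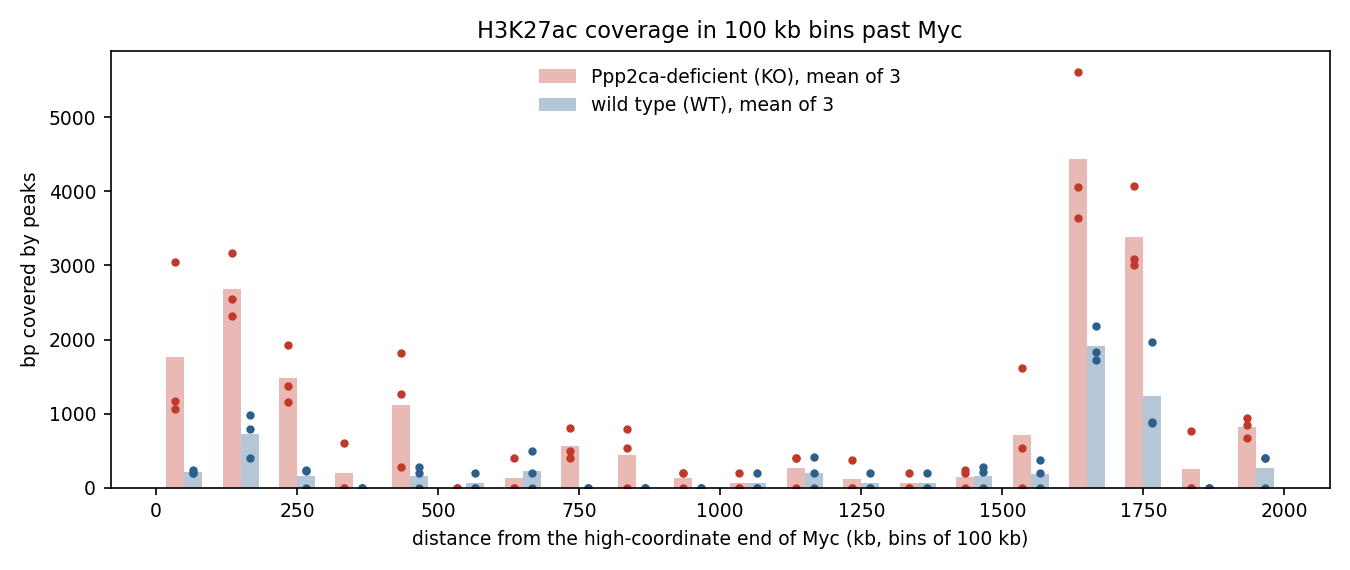
Base pairs covered by peaks in the 20 bins of 100 kb past Myc, with distance in kb on the x axis; bars are means of 3 libraries, KO left of WT in each bin, and points are libraries. The bins from 1600 to 1800 kb are the tallest in both genotypes, and those from 0 to 300 kb, over Pvt1, have all KO points above all WT points.

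In bins of 100 kb, 8 of the 20 had more base pairs covered in every KO library than in any WT library, an order that 22.2 percent of the 27214 genome tiles of that size showed. The bin from 1600 to 1700 kb had 5613, 3638 and 4053 bp in KO libraries 1 to 3 and 2185, 1720 and 1830 bp in WT libraries 1 to 3. Such mean coverage, or more, was reached by 2.49% of genome tiles in the KO libraries and by 2.68% in the WT libraries. This gene-poor bin thus ranked alike among tiles of its own genotype in KO and in WT. The bin from 1700 to 1800 kb, which includes the lncRNA 4930449C09Rik, was matched by 5.42% of tiles in KO and 6.84% in WT. The bin from 100 to 200 kb, inside Pvt1, was matched by 8.94% in KO and 13.8% in WT.

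Of the 131 regions in the 2 Mb, 2 had a peak in all 6 libraries, both in the distal concentration and outside annotated genes. The stronger of them lay 1713 kb past Myc (chr15:63703697-63705157). Its peaks were 1201, 1063 and 1279 bp wide in KO libraries 1 to 3 and 412, 1037 and 674 bp in WT libraries 1 to 3. Their folds were 4.15, 4.17 and 3.34 in KO and 3.69, 3.24 and 5.47 in WT, so the highest fold was that of WT library 3, where the peak ranked at percentile 1.71. The other lay 1668 kb past Myc (chr15:63658031-63658994), with widths of up to 964, 739 and 373 bp in KO and up to 352, 200 and 399 bp in WT, all WT peaks there missing a q-value of 0.05. Around them, regions at 1688 and 1730 kb had peaks in 3 KO and 2 WT libraries, regions at 1658 and 1746 kb in 3 KO and 1 WT, and a region at 1620 kb in 2 KO and 3 WT. Outside this span, 3 regions reached 4 libraries, those at 11.9 and 168 kb past Myc with 2 KO and 2 WT each and that at 402 kb with 3 KO and 1 WT.

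**Figure D5:**
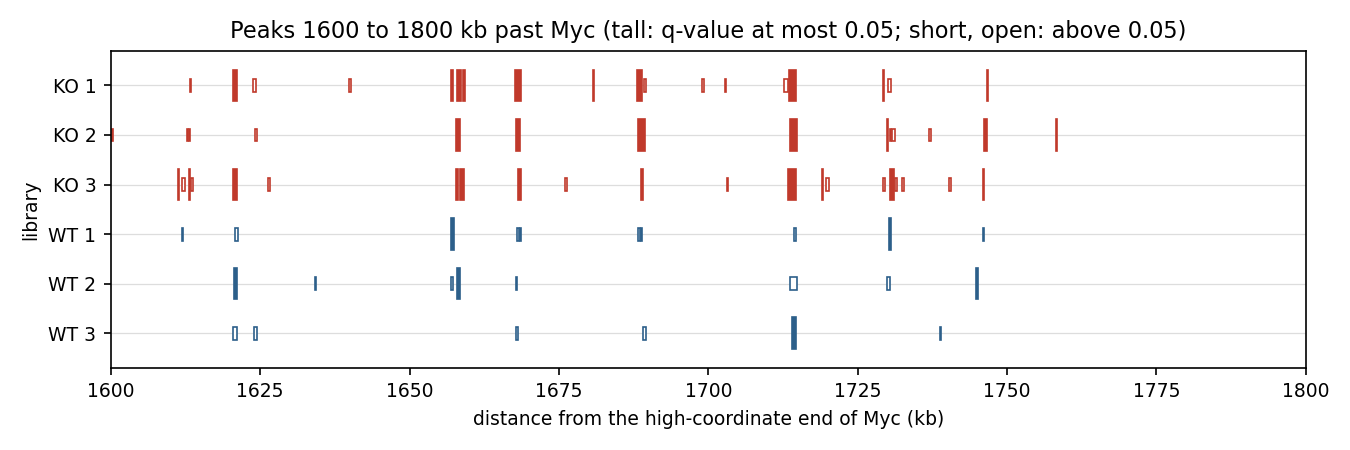
Peaks of each library from 1600 to 1800 kb past the high-coordinate end of Myc, with KO libraries above WT libraries; bars span each peak and are tall and filled where its q-value is at most 0.05, short and open otherwise. Bars near 1668 and 1713 kb run through all 6 libraries, tall in each KO library, while near 1713 kb the 1 tall WT bar is that of WT library 3.

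Regions with a peak in all 3 KO libraries and in no WT library numbered 6 among the 193 regions of the 9 territories, against 2.71 percent of all 104190 regions. Regions of the reverse kind numbered 0, against 0.0298 percent of all, and regions in all 6 libraries 7, against 5.27 percent. The 6 KO-only regions are 3.11% of the 193, close to the genome's share. Of them 5 were in the 2 Mb past Myc and 1 was the Trit1 border region near Mycl. Those past Myc lay at 65.9, 114, 200 and 744 kb and at 1613 kb, the first 3 inside Pvt1. The best ranked, at 65.9 kb (chr15:62056302-62056801), had peaks of 387, 365 and 309 bp with folds of 3.72, 4.35 and 3.64 in KO libraries 1 to 3 and q-values below 0.05 in each, and none in WT. At 744 kb the KO peaks rested on summits of 4, 3 and 5 fragments. Most regions were seen once, with 125 of the 193 (64.8%) in 1 library, against 73.5% of all regions.

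The percentiles of the Myc gene peak were compared with those of other genes marked in the same 5 libraries, of which there were 710. Closest were Txndc17 and 4933427D14Rik, which share 1 window, with a mean absolute difference of 3.63 percentile points over the 5 libraries, then Ndfip1 with 7.65.

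Other genes of the pathway were described from lists of names. In the parallel branch of MLX, the MAX-like partner, and MXD3, gene starts were marked at 3, 3 and 3 of 4 genes in KO libraries 1 to 3 and at 1, 1 and 1 in WT libraries 1 to 3. Mxd3, an MXD repressor of dividing cells, was marked in the 3 KO libraries alone, at percentiles of 14.8, 13.0 and 23.1, and Mlxipl, the carbohydrate-response factor, in none. Of 19 genes for MYC turnover and cofactors, 19, 18 and 19 were marked in the KO libraries and 14, 16 and 14 in the WT libraries. All 6 libraries marked 12 of them (63.2%, against 17.8 percent of all genes), with the best ranks at Kat5, the TIP60 acetyltransferase, and Ppp2r5a, a B56 subunit of PP2A, and the 3 KO libraries alone marked Zbtb17, the gene of the MYC partner MIZ1. Among 20 textbook MYC targets, 18, 17 and 18 were marked in the KO libraries and 12, 13 and 12 in the WT libraries. All 6 libraries marked 10 (50%), led by Eif4a1, a translation factor, and Nop16, a nucleolar protein. The 3 KO libraries alone marked Odc1 and Srm, of polyamine synthesis, and Cad, of pyrimidine synthesis (15% of the list, against 4.22 percent of all genes), although at a q-value of at most 0.05 Odc1 and Srm kept 2 KO libraries each. No library marked Tert, the telomerase subunit. Lists were not tested, and their counts are to be read beside the 42.5% of all genes marked in KO and 28.1% in WT libraries.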

How the data were processed

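Per the labels and the series text, H3K27ac CUT&RUN was run on bone marrow hematopoietic stem cells of 3 KO and 3 WT mice. The submitters' processing notes name MACS2 and BWA, with Trimmomatic, HOMER, deepTools and ChIPseeker, on GRCm38/mm10; their versions, the thresholds and any control library are not stated in the sources used. The authors deposited 1 narrowPeak list per library. The deposited ratio is the fold at a peak's summit over background, the deposited −log10 values are the p-value and q-value of that summit, and the deposited score restates them. All depend on the library's depth.

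Coordinates were made 1-based. Gene spans, starts and promoter sequence came from RefSeq tables of GRCm38.p6, the same build. Peaks were merged into regions at an overlap of 1 bp. Peaks were ranked within each library by −log10 p-value. Summit fragments were solved from fold and p-value as Poisson tails (tolerance 0.002). Values per library were compared by a two-sided exact permutation test; no p was adjusted, since none can pass 0.05. Each p-value is the share of assignments of the libraries to the groups whose difference in means is at least as large as that seen. The library is the unit. Analysis used Python 3.11.15, numpy 2.4.6, pandas 2.3.3 and scipy 1.17.1 and was tested on simulated data. The members and all lists were chosen with earlier results of these data known. All 9 members are named; of regions, the best ranked at and away from each gene start, and up to 10 in the 2 Mb past Myc with peaks in at least 4 libraries or in 1 genotype alone; the other KO-only regions and regions of 4 libraries there, the second Max region and the 1600 to 1800 kb span were chosen after their values were seen. The Pvt1 span was not part of the plan either. Peaks off the main chromosomes, 41 to 93 per library, were left out. Exons and introns were not analysed. A planned marker gene is not reported here.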

Additional observations from a re-analysis of the deposited data

How the results depend on the processing

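Covered base pairs and peaks over the 9 territories and over the 2 Mb past Myc, and the number of marked gene starts, kept KO above WT in direction under every alternative run. These were a q-value of at most 0.05, a −log10 q-value of at least 5, equal numbers of peaks per library, overlap and flank rules, gene-start windows of 500 and 2500 bp, leaving out each library, and a share of the library, the last chosen after seeing the data. The groups then overlapped for gene starts at 500 bp, with 5.67 members in KO and 4 in WT (exact permutation p = 0.3), and for peaks of the 2 Mb at equal numbers of peaks, with 20.3 in KO and 17.0 in WT (exact permutation p = 0.4). At a −log10 q-value of at least 5 the 2 Mb kept a mean of 0.333 peaks in KO and 0 in WT (exact permutation p = 1).

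KO-only regions, 6 as reported, numbered 10 at a q-value of at most 0.05, 3 at a −log10 q-value of at least 5, 2 at equal numbers of peaks and 0 with 10 kb flanks and no 2 Mb. Without 1 library each they numbered 8 to 15, with 12 without KO replicate 2, 15 without KO replicate 3 and 10 without WT replicate 2, and WT-only regions 0 to 1. That rule is looser with fewer libraries. As a share of called base pairs the KO minus WT difference was -21.3 bp per Mb at Mxd4 and -100.4 bp per Mb at Mnt. Under such shares the groups overlapped at Mxd1, Mxd4 and Mga. They also overlapped at Mxd1 with equal numbers of peaks, at Mxd4 with at least 0.5 of a peak inside, at Myc with 10 kb flanks and no 2 Mb, and at Myc, Max, Mxd1, Mxi1 and Mga at a −log10 q-value of at least 5.

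The labels do not say whether replicate numbers pair the libraries. Deviations of same-numbered libraries over the territories correlated at -0.0323, -0.0130 and 0.00128. Such small values show no pairing, but weak peak calls could hide one, so they do not settle it. With the number as a replicate block the difference of 23931 bp over all territories had an exact permutation p of 0.25, the smallest that 3 pairs allow. Without 1 library each, the differences ran from 19784 to 28122 bp over all territories, 10257 to 15182 bp in the 2 Mb, 36.3 to 57.3 peaks over all territories, 22.7 to 38.2 peaks in the 2 Mb and 2 to 3 gene starts. The median WT peak rests on 5 fragments, so absence from a WT list does not show absence of the mark, and the part of depth in such gaps was not tested.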
